A study of Arabidopsis thaliana with 48 samples.

Results

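Gene expression in excised Arabidopsis leaves was compared between 23.5 h and 24.5 h of a time course, 2 groups of 3 RNA sequencing libraries that lie 1 h apart. The members were chosen by their time labels, which gave 6 of the 48 libraries of the series. The 24 h libraries between them were left out of the comparison. All 34262 genes of the deposited count table were read, and 17568 genes were tested, those whose CPM (a gene's counts scaled to 1e6 counted reads of its library) averaged 1 or more over the 48 libraries. Both groups were excised leaves of 21-day-old *Arabidopsis thaliana* plants, and the methods name the 4th rosette leaf and Col-0 as wild type. Leaves were floated on buffer, kept in the dark at 16 °C for 24 h after excision, and then moved to continuous white light at 22 °C. The labels count time after the treatment and the methods after the pre-treatment, so both groups are read here as leaves in continuous light. Where the count starts is not stated further, and with a count from excision the move into light would fall between the groups. Intact leaves and leaves kept out of the treatment were not analysed here. The study sampled every 0.5 h from 19.5 h to 27 h to look for gene expression rhythms of a few hours that follow leaf excision.

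A rosette leaf cut from the plant loses its supply of water, nutrients and hormones, and cells near the cut can go on to form roots. The circadian clock of plant leaves is a loop of transcription factors. The MYB factors LHY and CCA1 are made around dawn and repress evening genes, and pseudo-response regulators (PRR proteins) follow in series through the day and in turn repress *LHY* and *CCA1*. Low sugar in leaves in darkness activates a starvation programme through the kinase SnRK1 and bZIP factors, with genes such as *DIN10*, while nitrate and sulfate assimilation run when sugar and light are plentiful.

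Within 1 h, 5 of 14 clock MYB and LNK genes, 8 of 14 Calvin cycle genes and 13 of 28 genes of sulfate and nitrate assimilation fell, and 10 of 16 PRR and evening clock genes, 16 of 27 sugar starvation genes and 52 of 73 plastid-encoded genes rose. Of the 17568 genes, 3594 (20.5%) differed at an adjusted p under 0.05 in edgeR's quasi-likelihood test: 1712 rose (9.74%) and 1882 fell (10.7%) at 24.5 h. A change of at least 2-fold was found for 464 risen (2.64%) and 473 fallen genes (2.69%), and of at least 4-fold for 115 and 44. The median size of the log2 change was 0.67 in the called genes and 0.22 in all genes tested. Rises and falls were thus nearly equal in number, also at 2-fold, and rises were the more frequent at 4-fold.

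**Figure D1:**
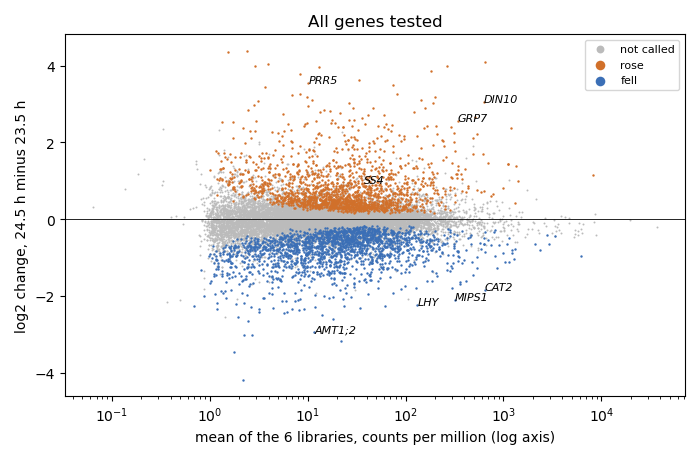
Log2 change from 23.5 h to 24.5 h (vertical axis) of the 17568 genes tested against their mean CPM over the 6 libraries (horizontal axis, log scale), with the 1712 genes that rose in orange, the 1882 that fell in blue and the others in grey. Genes that rose and genes that fell are found from low to high CPM, and 115 rose and 44 fell at least 4-fold.

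The libraries limit how firmly these counts can be read. For the number of genes that differ between 24.5 h and 23.5 h, leaving out replicate 2 at all time points left 0 called in the edgeR test, with 3563 at an unadjusted p under 0.05 against 6009 with all libraries. With only these 2 time points in the fit and no replicate term, leaving out replicate 2 left 952 genes called, an alternative chosen after seeing the data. With library totals in place of TMM scaling 1933 rose and 1204 fell, 61.6% rises against 47.6%. Without replicate 1 at all time points 1467 genes were called. Of the single libraries, 24.5 h replicate 2 moved the count most (1118 genes without it), followed by 23.5 h replicate 3 (1572) and 24.5 h replicate 1 (1895), and without any of the other 3 it was 2470 to 3534. Of 126 named genes that were called, 55 stayed called whichever of the 6 libraries was left out. The named genes were picked largely by small p or large change, so this share does not speak for all called genes. Whether the replicates are separate plates or plants is not stated. The p-values then cover the spread among libraries alone, estimated over all 48 libraries of the fit, and this spread may be technical.

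The 6 libraries held 30002692 to 36345488 counted reads and 22037 to 22157 detected genes, within the range of all 48 (23572988 to 38763552 reads). After subtracting each gene's series mean of log2(CPM + 1), libraries correlated over 11477 genes at 0.47 to 0.65 within 23.5 h and at 0.54 to 0.80 within 24.5 h, and at -0.69 to -0.20 between them. Each 23.5 h library was closest to a library of another time point: replicate 1 to 22.5 h replicate 2 (r = 0.70), and replicates 2 and 3 to 20 h replicate 2 (r = 0.69 and 0.79). Each 24.5 h library was closest to another of its group, and 23 h replicate 3 had a mean r of 0.66 with the 24.5 h libraries and of 0.10 with its own time point. These correlations are across genes, which are not independent replicates. Of 5 mesophyll markers (*RBCS1A*, *RCA*, *CA1*, *LHCB3*, *PRK*) none was at 0, and their summed level was 21380 to 25620 CPM at 23.5 h and 13880 to 18360 CPM at 24.5 h.

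The dawn genes *LHY* and *CCA1* fell and *PRR7*, *PRR5* and *TOC1* rose. *LHY* stood at 226, 252 and 174 CPM at 23.5 h and 58.7, 43.9 and 40.1 CPM at 24.5 h in replicates 1 to 3, and *CCA1*, its close relative, at 167, 176 and 115 CPM at 23.5 h and 54.9, 40 and 46 CPM at 24.5 h. Neither gene's groups overlapped, and all 24.5 h libraries lay far below the lowest 23.5 h library (log2 change -2.23 ± 0.59 (SE), adjusted p = 0.0087 for *LHY*; log2 change -1.73 ± 0.45 (SE), adjusted p = 0.0084 for *CCA1*). *RVE8*, a related MYB gene that activates evening genes, was at 70.8, 70.3 and 52.1 CPM at 23.5 h and 25.8, 19.7 and 20.5 CPM at 24.5 h. *RVE8* had a log2 change of -1.58 ± 0.44 (SE) and an adjusted p = 0.013. Of the 14 clock MYB and LNK genes tested, 5 fell (*LHY*, *CCA1*, *RVE8*, *ASG4* and *LNK1*) and 1 rose, *RVE7* (log2 change 1.28 ± 0.32 (SE), adjusted p = 0.0068). The median log2 change of the 14 was -0.51, against -0.00 over all genes tested. The other 8, *RVE1* (-0.04 ± 0.58), *RVE2* (0.13 ± 0.67), *RVE4* (-0.57 ± 0.22), *LNK2* (-0.54 ± 0.23), *LNK3* (-0.47 ± 0.25), *LNK4* (0.06 ± 0.20), AT4G01280 (-0.19) and AT5G52660 (-0.08), did not pass the test. Without 24.5 h replicate 2 only *LNK1* stayed called among the falls.

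No PRR or evening gene passed the test as a fall. *PRR5* stood at 1.46, 1.63 and 1.53 CPM at 23.5 h and 11.4, 21.3 and 23.7 CPM at 24.5 h (log2 change 3.55 ± 0.69 (SE), adjusted p = 0.0016), with every 24.5 h library far above the 23.5 h libraries. *PRR7* was at 76.4, 85 and 68.2 CPM at 23.5 h and 163, 159 and 155 CPM at 24.5 h (log2 change 1.02 ± 0.34 (SE), adjusted p = 0.032), with 24.5 h values close together. *FKF1*, a blue light receptor of the evening, was at 0.303, 0.602 and 0.34 CPM at 23.5 h and 1.65, 6.73 and 14.2 CPM at 24.5 h (log2 change 4.05 ± 1.04 (SE), adjusted p = 0.0075), and its 24.5 h libraries spread widely, with replicate 1 the lowest. Of 16 genes tested, 10 rose and 0 fell, with a median log2 change of 0.96: besides these, *TOC1* (0.90), a repressor of the dawn genes, *PRR3* (1.86), the evening complex genes *ELF3* (0.82), *ELF4* (0.87) and *LUX* (1.01), *COR27* (1.71) and AT4G33980 (2.98). *GI* was higher in every 24.5 h library, at 26.1, 34.7 and 35.5 CPM at 23.5 h and 58.4, 80.4 and 109.7 CPM at 24.5 h. *GI* did not pass the test (log2 change 1.32 ± 0.52 (SE), adjusted p = 0.07). *ZTL* was lower in every 24.5 h library and did not pass either (log2 change -0.27 ± 0.11 (SE), adjusted p = 0.068). *PRR9*, *BOA*, *LKP2* and *JMJD5* were also not called. In 9 of the 10, replicate 1 was the lowest of the 24.5 h libraries, and in 9 replicate 3 was the highest. The call of *PRR7* held in 1 of the 6 fits without a library (that without 24.5 h replicate 3) and those of *ELF4*, *LUX* and *COR27* in 2, and 6 of the 10 stayed called without 23.5 h replicate 2, without 23.5 h replicate 3 or without 24.5 h replicate 2.

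**Figure D2:**
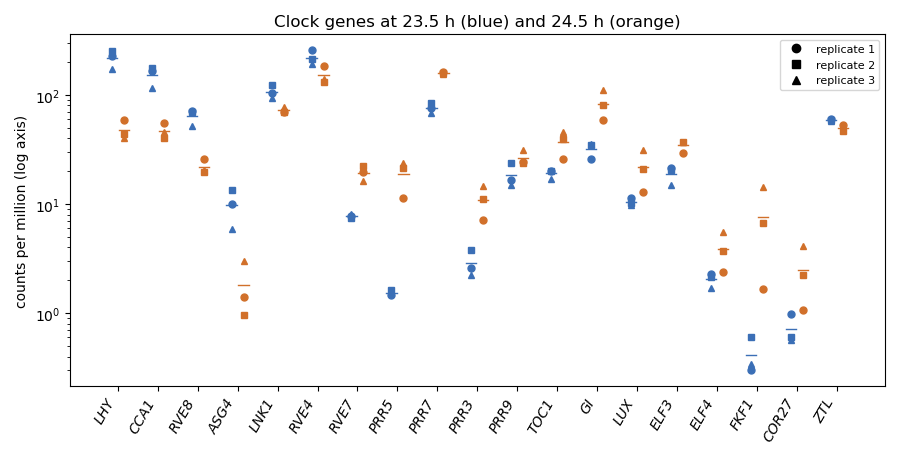
CPM (vertical axis, log scale) of 19 clock genes in each of the 3 libraries at 23.5 h (blue) and 24.5 h (orange), with horizontal bars for the group means and marker shapes for the replicates. *LHY*, *CCA1* and *RVE8* are lower at 24.5 h with no overlap of the groups, and *PRR5*, *PRR3*, *PRR7*, *TOC1* and *FKF1* are higher.

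Among clock outputs, *GRP7*, an RNA-binding protein gene, was at 82, 102 and 97 CPM at 23.5 h and 244, 555 and 967 CPM at 24.5 h. *GRP7* had a log2 change of 2.55 ± 0.71 (SE) and an adjusted p = 0.012. Its 24.5 h values differed widely between replicates, all above the 23.5 h values, and the call was lost without 23.5 h replicate 3. The catalase genes went in opposite directions: *CAT2*, the morning form, was at 1150, 969.6 and 879 CPM at 23.5 h and 389.9, 237 and 234 CPM at 24.5 h (log2 change -1.84 ± 0.50 (SE), adjusted p = 0.011). *CAT3* rose by 1.16 on the log2 scale. Of 14 outputs tested 3 rose (*GRP7*, *CAT3*, *PIF4*) and 3 fell (*CAT2*, *TZP*, *CDF3*), and without 24.5 h replicate 2 none of the 3 falls was called, while the rises numbered 0 without 23.5 h replicate 3 and 1 without 23.5 h replicate 2, 24.5 h replicate 1 or 24.5 h replicate 2.

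The evening element AAATATCT is bound by LHY and CCA1 in the promoters of evening genes. It was searched on both strands in the 250 bases before the annotated start (RefSeq, TAIR10.1) of 17463 tested genes, and 877 promoters (5.02%) held it. Of the promoters of risen genes 9.67% held it, of those that rose at least 2-fold 15.3%, of fallen genes 4.09%, and of those that fell at least 2-fold 6.34%. The element was held by 7 of 16 promoters in the PRR and evening list, 5 of 14 of the clock outputs and 1 of 14 of the clock MYB list. The stretches below are shown since they belong to called clock genes, are written 5′ to 3′ on the strand of the gene, and carry the element in either orientation in capitals:
PRR5 (chr5:8358706-8358753, minus strand): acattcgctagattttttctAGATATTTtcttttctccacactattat
TOC1 (chr5:24674792-24674839, plus strand): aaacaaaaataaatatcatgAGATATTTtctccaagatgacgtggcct
LUX (chr3:17182952-17183017, plus strand): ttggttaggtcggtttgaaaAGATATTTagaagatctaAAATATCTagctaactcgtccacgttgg
FKF1 (chr1:25508389-25508480, plus strand): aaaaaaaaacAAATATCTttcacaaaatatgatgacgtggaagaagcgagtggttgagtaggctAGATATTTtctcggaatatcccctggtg
GRP7 (chr2:9266560-9266653, minus strand): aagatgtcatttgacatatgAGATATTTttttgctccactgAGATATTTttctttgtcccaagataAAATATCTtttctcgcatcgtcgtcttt
TZP (chr5:17526485-17526532, plus strand): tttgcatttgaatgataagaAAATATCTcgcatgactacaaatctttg
The first 5 genes rose and *TZP*, a light signalling gene, fell. The called clock genes *RVE7*, *ELF4*, *COR27* and *CAT3*, whose stretches are not printed, also held the element, and all of them rose. *TZP* was the only called clock gene with the element that fell. *LHY*, *CCA1*, *PRR7* and *PRR3* held none in this window. For comparison, the CCA1-binding site AAAAATCT was held by 6.9% of all promoters, 7.26% of risen and 6.48% of fallen genes, and the G-box CACGTG by 7.42%, 7.68% and 9.09%. The CBF site CCGAC was held by 13.2%, 13.8% and 12.1%, and the auxin element TGTCTC by 10.4%, 8.59% and 11.6%. No motif contains another, and a match is a description of these letters only.

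Most genes of darkness and sugar starvation rose. *DIN10*, a raffinose synthase family gene, stood at 232, 64.2 and 113 CPM at 23.5 h and 1125, 1468 and 773 CPM at 24.5 h (log2 change 3.05 ± 0.73 (SE), adjusted p = 0.0051), and all 24.5 h libraries were above all 23.5 h libraries. *MIOX2*, a myo-inositol oxygenase gene, was at 9.93, 5.48 and 5.78 CPM at 23.5 h and 33.6, 50.8 and 31.2 CPM at 24.5 h. *MIOX2* had a log2 change of 2.41 ± 0.47 (SE) and an adjusted p = 0.0016. *TPS10*, of the trehalose-phosphate synthase family, was at 30.5, 21.9 and 21.6 CPM at 23.5 h and 68.3, 76.7 and 71.5 CPM at 24.5 h. *TPS10* had a log2 change of 1.51 ± 0.35 (SE) and an adjusted p = 0.0039. Of the 27 members tested, 16 rose and 1 fell, with a median log2 change of 1.51. The risers included *BZIP1* (2.85), a transcription factor of the starvation response, *AKINBETA1* (2.09), a subunit of the SnRK1 kinase, *STP1* (2.25), a sugar transporter, and *TPS6* to *TPS11*. *TPS5*, of the same family as *TPS6* to *TPS11*, fell (log2 change -1.62 ± 0.52 (SE), adjusted p = 0.027). This call was lost without 23.5 h replicate 2 or 3 or 24.5 h replicate 1 or 2. *KIN10*, the catalytic SnRK1 subunit, had a log2 change of 0.05, and *ASN1*, a widely used starvation marker, was higher in each 24.5 h library without passing the test (log2 change 1.90, adjusted p = 0.16). The size of the rise differed by library: of the 16 risers 14 were highest in replicate 1 among the 23.5 h libraries and 12 were lowest in replicate 3 among the 24.5 h libraries. Without 24.5 h replicate 2 the list kept a count of 6, without 23.5 h replicate 3 5, without 23.5 h replicate 2 8 and without 24.5 h replicate 1 9.

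The 12 largest rises among called genes averaging at least 10 CPM with groups that do not overlap held few members of the lists. AT3G15450, an aluminum induced protein with YGL and LRDR motifs, stood at 161, 16.3 and 47.7 CPM at 23.5 h and 1172, 1666 and 800.0 CPM at 24.5 h. AT3G15450 had a log2 change of 4.09 ± 1.15 (SE) and an adjusted p = 0.012. *MEE14* was at 47.8, 20.8 and 25.6 CPM at 23.5 h and 379, 656 and 463 CPM at 24.5 h. *MEE14* had a log2 change of 3.98 ± 0.86 (SE) and an adjusted p = 0.0029. Of the other 10, AT2G20670 and AT4G32480 are both annotated as DUF506 proteins, AT1G56300 and AT5G23240 as DnaJ-domain proteins, AT5G22920 as a CHY and RING zinc finger protein, AT3G62550 as an adenine nucleotide alpha hydrolase-like protein, AT5G19120 as an aspartyl protease family protein and AT5G62360 as an invertase or pectin methylesterase inhibitor, besides *PRR5* and *DIN10*. Their log2 changes ran from 3.05 to 4.09. The calls of AT3G15450 and AT5G19120 were lost without 23.5 h replicate 2, 23.5 h replicate 3 or 24.5 h replicate 2, those of AT2G20670 and AT4G32480 also without 24.5 h replicate 1, and that of AT5G22920 without 24.5 h replicate 2.

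Genes at several steps of nitrate and sulfate assimilation fell. *NIR1*, nitrite reductase, stood at 123, 170.2 and 164 CPM at 23.5 h and 57.5, 60 and 83.5 CPM at 24.5 h (log2 change -1.22 ± 0.27 (SE), adjusted p = 0.0031). *APR2*, the reductase that commits sulfate to reduction, was at 379.8, 444 and 379 CPM at 23.5 h and 148, 150.4 and 230.1 CPM at 24.5 h (log2 change -1.23 ± 0.28 (SE), adjusted p = 0.0035). *SERAT2;2*, serine acetyltransferase, was at 284, 414 and 421 CPM at 23.5 h and 120.4, 134 and 206 CPM at 24.5 h. *SERAT2;2* had a log2 change of -1.31 ± 0.30 (SE) and an adjusted p = 0.0039. In each, every 24.5 h library was below every 23.5 h library, and replicate 3 was the highest of the 24.5 h libraries. Of 28 members tested, 13 fell and 0 rose, with a median log2 change of -0.68. They spanned uptake (*NRT1.1* -1.08, *SULTR2;1* -0.43), reduction (*NIA2* -1.69, *NIR1*, *APR1* to *APR3*, *SIR* -0.48), amino acid synthesis (*GLN2* -0.67, *ASN2* -1.102, *SERAT2;2*) and the sulfur starvation genes *SDI1* (-2.12) and *LSU2* (-1.25). Cytosolic glutamine synthetase and O-acetylserine(thiol)lyase members did not pass the test. The count was 4 without 23.5 h replicate 3 or 24.5 h replicate 2, 7 without 24.5 h replicate 1 and 8 without 23.5 h replicate 1.

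Of the Calvin cycle genes, 8 of 14 tested fell and 0 rose, with a median log2 change of -0.88. *GAPB*, a subunit of chloroplast glyceraldehyde-phosphate dehydrogenase, was at 848, 704 and 733 CPM at 23.5 h and 383, 285 and 304 CPM at 24.5 h (log2 change -1.27 ± 0.34 (SE), adjusted p = 0.0093). *CA1*, chloroplast carbonic anhydrase, was at 229, 199 and 167 CPM at 23.5 h and 81.8, 45.1 and 49.2 CPM at 24.5 h. *CA1* had a log2 change of -1.79 ± 0.52 (SE) and an adjusted p = 0.015. Both were lowest in replicate 2 of the 24.5 h libraries. *RCA*, *SBPASE*, *FBA1*, *FBA2*, *GAPA* and *RBCS3B* had log2 changes of -1.27 to -0.88 and fell, and *RBCS1A*, one of a set of near-identical Rubisco small subunit genes between which reads may be split, did not pass the test. Of 32 photosystem and light-harvesting genes only *PSBS* was called (log2 change -1.28). Only 4 of the 32 had a log2 change above 0, and their median was -0.28. The difference from the Calvin list was not tested. *CAB2*, a light-harvesting gene nearly identical to its neighbours, stood at 6663, 5111 and 6168 CPM at 23.5 h and 6172, 4009 and 3243 CPM at 24.5 h (log2 change -0.45 ± 0.34 (SE), adjusted p = 0.36), with overlapping groups. All 8 falls of the Calvin list were lost without 24.5 h replicate 2, and 3, 4 and 4 were left without 23.5 h replicate 1, 23.5 h replicate 3 and 24.5 h replicate 3. The call of *PSBS* was lost in 4 of the 6 fits without a library, those without 23.5 h replicate 1, 23.5 h replicate 3, 24.5 h replicate 2 and 24.5 h replicate 3.

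**Figure D3:**
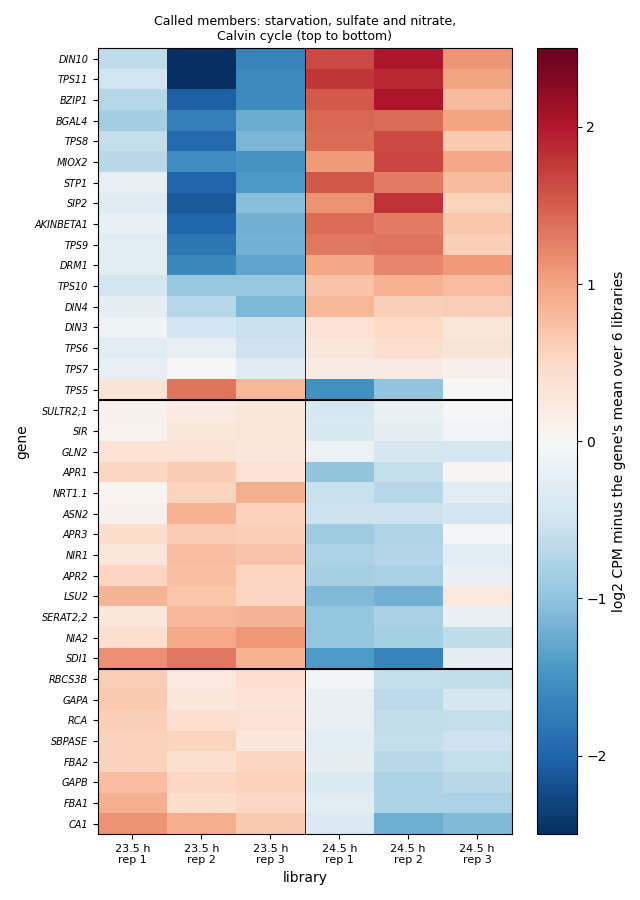
Log2 CPM of the called members of 3 gene lists in each of the 6 libraries, relative to each gene's mean over these libraries (red higher, blue lower), with sugar starvation genes at the top, sulfate and nitrate assimilation in the middle and the Calvin cycle at the bottom. The 16 starvation genes that rose are red at 24.5 h, unlike *TPS5*, and the 13 and 8 falls of the other lists are mostly blue there, palest in replicate 3 for assimilation, where *LSU2* is pale red, and in replicate 1 for the Calvin cycle.

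Most plastid-encoded genes rose, a set chosen after its values were seen. Of 73 genes of the plastid genome tested, 52 rose and 0 fell, with a median log2 change of 1.07, and 72 had 24.5 h libraries that were all above the 23.5 h libraries. The plastid genome took 0.155% to 0.200% of the counted reads at 23.5 h and 0.387% to 0.503% at 24.5 h, within the 0.152% to 0.688% over all 48 libraries. Of 22 mitochondrial genes 6 rose (0 without 23.5 h replicate 2, 24.5 h replicate 1 or 24.5 h replicate 2) and 0 fell, with a median of 0.79, and their share was 0.0551% to 0.0694% at 23.5 h and 0.120% to 0.144% at 24.5 h. How library preparation or RNA quality bears on these shares was not tested. Over all genes tested, a share of 21.0% had every 24.5 h library above every 23.5 h library. The count of 52 was 12 without 23.5 h replicate 2 or 24.5 h replicate 1, 18 without 24.5 h replicate 2, and 29 without 23.5 h replicate 3.

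Starch genes went both ways. *SS4*, which starts starch granules, stood at 25.7, 27.8 and 23.5 CPM at 23.5 h and 47.6, 51 and 52.5 CPM at 24.5 h (log2 change 0.93 ± 0.15 (SE), adjusted p = 0.00062). *GWD1* and *PWD*, the dikinases that open starch to breakdown, rose by 1.18 and 0.79 on the log2 scale, with *AMY3* (1.097), *DPE1* (1.09) and *SBE2.1* (0.76). *SS2* fell (log2 change -0.69), as did *GBSS1* (-1.80). The call of *GBSS1* was lost without 23.5 h replicate 2 or 3 or 24.5 h replicate 2 or 3. In all 6 risers replicate 1 was the lowest of the 24.5 h libraries. In all, 6 of 27 rose (22.2%) and 2 fell (7.41%), against 9.74% and 10.7% of all genes tested. Of the 6 rises 2 were left without 23.5 h replicate 3 or 24.5 h replicate 2.

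Light signalling genes moved both ways, 9 of 34 up and 11 down. *BBX18* stood at 22.6, 26.8 and 20.6 CPM at 23.5 h and 5.56, 4.77 and 7.47 CPM at 24.5 h (log2 change -2.01 ± 0.41 (SE), adjusted p = 0.0021). *BBX25* was at 102, 114 and 87.5 CPM at 23.5 h and 35.9, 34.1 and 39.4 CPM at 24.5 h (log2 change -1.50 ± 0.33 (SE), adjusted p = 0.003). *BBX16* was at 128, 124 and 97.6 CPM at 23.5 h and 53.7, 37.9 and 51.5 CPM at 24.5 h (log2 change -1.32 ± 0.28 (SE), adjusted p = 0.0024); these are B-box transcription factor genes of the light response. *BBX31*, *BBX30*, *BBX32* and *BBX19* fell as well, and *BBX27* (2.09), *BBX22* (1.95), *BBX17* (1.56) and *BBX14* (1.19) rose. *HY5*, the main factor promoting light growth, fell (log2 change -0.98), with its regulators *COP1* (-0.41) and *SPA1* (-0.58), while the photoreceptor genes *CRY1* (0.83), *CRY2* (0.76), *PHOT1* (0.81) and *PHYA* (0.58) rose. Of the 9 risers all were highest in replicate 1 among the 23.5 h libraries. Without 24.5 h replicate 2 the counts were 1 up and 6 down, and 3 or 4 of the rises were left without 23.5 h replicate 3 or replicate 2. Protochlorophyllide reductase *PORB*, in chlorophyll synthesis, was at 221, 146 and 185 CPM at 23.5 h and 812, 956 and 639 CPM at 24.5 h (log2 change 2.103 ± 0.47 (SE), adjusted p = 0.0033), the 1 called gene of 15 in that list.

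Some cold response genes rose. *CBF1*, a transcription factor that drives cold genes, stood at 0.303, 0.115 and 0.199 CPM at 23.5 h and 3.21, 5.83 and 4.71 CPM at 24.5 h (log2 change 4.39 ± 0.86 (SE), adjusted p = 0.0017), low but without overlap, and stayed called in all 6 fits without a library. *COR47*, a dehydrin, was at 156, 133 and 131 CPM at 23.5 h and 382, 563 and 545 CPM at 24.5 h. *COR47* had a log2 change of 1.78 ± 0.43 (SE) and an adjusted p = 0.0049. Of 13 tested 5 rose (*CBF1* to *CBF3*, *COR15B* and *COR47*) and 0 fell, and the median log2 change was 1.53. The 3 CBF genes are near-identical neighbours, as are *COR15A* and *COR15B*, so reads may be split among them. Without 23.5 h replicate 1, 2 or 3, or 24.5 h replicate 2 or 3, the count was 2, and the call of *CBF2* was lost in all 6 fits.

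**Figure D4:**
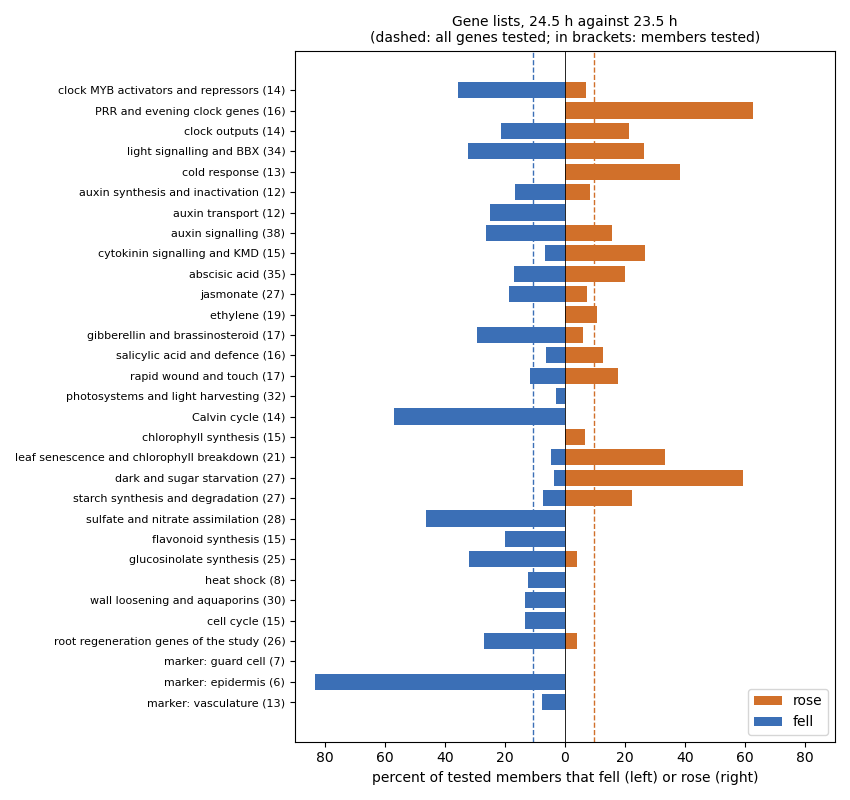
Share of the tested members of each of 31 gene lists that rose (right, orange) or fell (left, blue) at 24.5 h, with the number of members tested in brackets and dashed lines at the shares over all genes tested, 9.74% and 10.7%. The PRR and evening clock list and the starvation list reach furthest to the right, and the epidermis markers, the Calvin cycle and the sulfate and nitrate list furthest to the left.

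Some senescence regulators rose. *ORE1*, a NAC factor that promotes leaf ageing and a reporter gene of the study, stood at 37.7, 25.7 and 25.4 CPM at 23.5 h and 88.9, 110.0 and 66.1 CPM at 24.5 h (log2 change 1.54 ± 0.37 (SE), adjusted p = 0.0052). *ORS1*, its close relative, was at 17.36, 17.5 and 22.4 CPM at 23.5 h and 61.2, 84.6 and 50 CPM at 24.5 h. *ORS1* had a log2 change of 1.76 ± 0.35 (SE) and an adjusted p = 0.0017. Both stayed called in all 6 fits without a library. Of 21 members 7 rose, 6 of them NAC factors (*ORE1*, *ORS1*, *NAP*, *NAC046*, *NAC055* and *RD26*) and the chlorophyll b reductase *NYC1* (0.97), while *ACD2*, a later step of chlorophyll breakdown, fell (-0.34). *SAG12* was below the filter on low values. The count of rises was 4 without 23.5 h replicate 3 or 24.5 h replicate 2.

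Few auxin genes changed by 2-fold. *AFB2*, an auxin receptor, stood at 88.2, 104 and 89.7 CPM at 23.5 h and 58.6, 54.6 and 75.7 CPM at 24.5 h (log2 change -0.62 ± 0.15 (SE), adjusted p = 0.0048). *ARF19*, a response factor that rose, was at 8.64, 10.8 and 7.83 CPM at 23.5 h and 17.5, 19.6 and 12.8 CPM at 24.5 h. *ARF19* had a log2 change of 0.85 ± 0.21 (SE) and an adjusted p = 0.0064. Of 38 signalling genes 6 rose and 10 fell, of which 1 changed at least 2-fold, and of 12 transport genes 3 fell, among them *PIN6* and *ABCB1*. Of 12 genes of synthesis and inactivation, *GH3.6*, which conjugates auxin, rose (1.05) and *YUC6* (-0.58), an auxin synthesis gene, and AT1G14130 (-0.38) fell. These calls, 8.33% up and 16.7% down, were near the 9.74% and 10.7% of all genes tested. The shares were 15.8% and 26.3% in the signalling list, and 25.0% of the transport genes fell. Of the study's further reporter genes, *PIN3* was higher in each 24.5 h library, at 131, 106 and 123 CPM at 23.5 h and 232, 205 and 146 CPM at 24.5 h (log2 change 0.67 ± 0.29 (SE), adjusted p = 0.1). *ARF7* was at 62.2, 79.7 and 66.4 CPM at 23.5 h and 59.4, 55.8 and 64 CPM at 24.5 h (log2 change -0.25 ± 0.09 (SE), adjusted p = 0.055), neither past the threshold. Without 24.5 h replicate 2, 0 of the 16 signalling calls and 1 of the 3 transport calls were left, and without 24.5 h replicate 1 the signalling list had 3 rises and 2 falls. It had 2 rises and 5 falls without 23.5 h replicate 2, and 1 rise and 6 falls without 23.5 h replicate 3. *GH3.6* was lost without 23.5 h replicate 1 or 2 or 24.5 h replicate 1 or 2. The falls of *YUC6* and AT1G14130 were both called only with all libraries or without 24.5 h replicate 3.

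Of the 40 genes that the study lists for root regeneration, 26 passed the filter, 7 fell and 1, *ARF19*, rose. These shares were 26.9% and 3.85%, against 10.7% and 9.74% of all genes tested. The falls included *PLT3*, *PLT5*, *TCP20*, *SCR*, *SHR* and *YUC6*; *PLT5*, a transcription factor of regenerating tissue, stood at 3.44, 4.82 and 4.05 CPM at 23.5 h and 1.86, 2.1 and 3.19 CPM at 24.5 h. *PLT5* had a log2 change of -0.83 ± 0.20 (SE) and an adjusted p = 0.006. None changed at least 2-fold, and their median was -0.26. The falls numbered 1 without 24.5 h replicate 2, 3 without 24.5 h replicate 1, and 4 without 23.5 h replicate 2 or 3.

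In the cytokinin list 4 of 15 genes rose (26.7%), all KMD genes, and 1 fell (6.67%), against 9.74% and 10.7% of all genes tested. *KMD1*, an F-box gene that marks cytokinin response regulators for breakdown, stood at 35.4, 15.3 and 44.2 CPM at 23.5 h and 242, 275 and 118 CPM at 24.5 h (log2 change 2.80 ± 0.80 (SE), adjusted p = 0.014); *KMD2*, *KMD3* and *KMD4* also rose, and the cytokinin receptor *AHK4* fell (-1.08), a call lost without 23.5 h replicate 2, 24.5 h replicate 1 or 24.5 h replicate 2. All 4 KMD calls were lost without 23.5 h replicate 2 or 24.5 h replicate 2, 1 was left without 23.5 h replicate 3 and 2 without 24.5 h replicate 1. The abscisic acid kinase genes *SNRK2.3* and *SNRK2.2* rose, at 24, 22.3 and 21.8 CPM at 23.5 h and 62.5, 74.1 and 58.5 CPM at 24.5 h (log2 change 1.48 ± 0.27 (SE), adjusted p = 0.0014) and with a log2 change of 1.07, as did the factors *ABF1* (1.77) and *ABF4* (0.79). The receptor *PYL1* fell (-0.99) while *PYL7* (1.30) and *PYL8* (1.05) rose, so that the receptor genes were divided. In all 7 of 35 rose (20.0%) and 6 fell (17.1%). *EAR1*, an abscisic acid signalling gene that the study followed up, was at 414, 400.4 and 424 CPM at 23.5 h and 327, 411 and 427 CPM at 24.5 h (log2 change -0.13 ± 0.16 (SE), adjusted p = 0.59), with overlapping groups. The 7 rises were 4 without 23.5 h replicate 3 or 24.5 h replicate 2. The 6 falls were 2 without 23.5 h replicate 2 and 1 without 23.5 h replicate 1, 24.5 h replicate 1 or 24.5 h replicate 2.

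Smaller groups in the remaining hormone lists were called. In jasmonate signalling 5 of 27 fell, among them *MYC4* (-1.001), *LOX3* (-1.24), *JAR1* (-0.81) and the receptor *COI1* (-0.35), and 2 rose. In the gibberellin and brassinosteroid list 5 of 17 fell, including the DELLA repressors *RGL2* (-2.35), *RGL1* (-1.14) and *RGA* (-0.53), and 1 rose. The ethylene list had 2 rises of 19, *ERS1* (0.66) and *EIL1* (0.49), and the salicylic acid list 2 rises, *NPR3* (0.93) and *NPR4* (0.97), and 1 fall, *EDS1* (-0.38), of 16, near the background of 9.74% and 10.7%. *EIL1* was lost without 23.5 h replicate 3, 24.5 h replicate 1 or 24.5 h replicate 2. The salicylic acid list had 0 calls without 24.5 h replicate 2, and *NPR4* and *EDS1* each held in 2 of the 6 fits without a library. Of 17 wound and touch genes 3 rose, among them *TCH4* (2.75), a wall enzyme, and AT1G36060 (1.39), and *TCH2* (-0.70) and *WRKY46* (-0.88) fell. Against the same background, 17.65% of the wound and touch genes rose and 11.8% fell. In the jasmonate list 7.41% rose and 18.5% fell, and in the gibberellin and brassinosteroid list 5.88% and 29.4%. Of the 5 jasmonate falls 2 were left without 23.5 h replicate 3 or 24.5 h replicate 2, and of the 5 gibberellin and brassinosteroid falls 3 without 24.5 h replicate 1 and 1 without 24.5 h replicate 2. Of the 2 jasmonate rises 0 were left without 23.5 h replicate 3 or 24.5 h replicate 2 and 1 without 23.5 h replicate 1, 23.5 h replicate 2 or 24.5 h replicate 1. The gibberellin and brassinosteroid rise was lost without 23.5 h replicate 2 or 24.5 h replicate 2. Of the 3 wound and touch rises 1 was left without 24.5 h replicate 2. Both wound and touch falls were lost without 23.5 h replicate 2 or 3 or 24.5 h replicate 1 or 2.

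The largest falls were in genes of varied function. *AMT1;2*, an ammonium transporter, stood at 21.2, 20.6 and 20.2 CPM at 23.5 h and 2.5, 1.7 and 4.01 CPM at 24.5 h (log2 change -2.95 ± 0.62 (SE), adjusted p = 0.0022). *MIPS1*, the first enzyme of inositol synthesis, was at 439.5, 596 and 501 CPM at 23.5 h and 89.3, 80.6 and 196 CPM at 24.5 h. *MIPS1* had a log2 change of -2.105 ± 0.43 (SE) and an adjusted p = 0.0021. Both stayed called without any one of the 6 libraries. That all 24.5 h values were under all 23.5 h values was a condition of their choice here. They belong to the 12 largest falls among called genes averaging at least 10 CPM with groups that do not overlap. The others were AT2G15020 (-3.19), *TBL26*, *KCS2*, *NDA1*, AT5G05250, *PAP1*, *GALS3*, *LHY*, AT3G56290 and *FLA15*, down to -2.07. Without 24.5 h replicate 2 the calls of AT2G15020, *KCS2*, AT5G05250, *PAP1*, *GALS3* and *LHY* were lost, without 24.5 h replicate 1 that of *KCS2*, and without 23.5 h replicate 3 that of AT5G05250. *PAP1* and *PAP2* are MYB activators of anthocyanin synthesis: with *MYB111* they were the 3 falls of 15 flavonoid genes, 1 of which stayed called without 24.5 h replicate 1 and none without replicate 2. Of 25 glucosinolate genes 1 rose and 8 fell. The falls included *SOT18* (-0.85), *CYP83A1* (-0.64), *MYB34* (-1.36) and AT2G31790 (-1.002), named for having the smallest p in the list. Each of them was called in all 6 fits without a library. The 8 falls were 4 without 24.5 h replicate 1 or 2 and 5 without 23.5 h replicate 3, and the rise was lost without 23.5 h replicate 3 or 24.5 h replicate 2.

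Epidermis markers moved with the comparison. Of 6 tested, 5 fell (*ATML1*, *PDF2*, *FDH*, *ABCG12* and *GL2*), none of the 7 markers was at 0, and their summed level was 1193 to 1312 CPM at 23.5 h and 904 to 1026 CPM at 24.5 h. *FDH*, an epidermal fatty acid elongase, stood at 202, 220.1 and 226 CPM at 23.5 h and 118, 90.8 and 122 CPM at 24.5 h. *FDH* had a log2 change of -1.01 ± 0.18 (SE) and an adjusted p = 0.0012. Of 7 guard cell markers tested 0 were called (72.7 to 89.5 CPM and 68.0 to 83.2 CPM summed), and of 13 vasculature markers 1, *CESA7*, fell (945 to 1008 CPM and 893 to 1013 CPM). The call of *CESA7* held in 1 of the 6 fits without a library, that without 23.5 h replicate 3. Fewer cells of a type and less RNA per cell cannot be told apart in whole leaves, and the part of the epidermis in the falls of other lists was not tested. The epidermis count was 2 without 23.5 h replicate 3 and 1 without 24.5 h replicate 2. In the remaining lists 4 of 30 wall loosening and aquaporin genes fell (*PIP1;4* -1.11, *EXPA4* -0.96, *EXPA5* -1.81, *PIP2;3* -0.59), as did 2 of 15 cell cycle genes (*CYCD1;1* -0.75, *CDKB2;1* -0.55) and 1 of 8 heat shock genes (*MBF1C* -0.77), near the 10.7% of all genes. *CDKB2;1* was called in 1 of the 6 fits without a library, that without 24.5 h replicate 3, and *MBF1C* in 2, those without 23.5 h replicate 1 or 24.5 h replicate 3. The 4 falls of the wall list were 2 without 23.5 h replicate 3 or 24.5 h replicate 2, where *EXPA5* was lost. The call of *PIP2;3* was lost in all 6 fits without a library.

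The pair of time points on either side, 25 h against 23 h, shares no library with the comparison of 24.5 h with 23.5 h. It gave 5 genes (0.0285%) at an adjusted p under 0.05 and 1949 at an unadjusted p under 0.05 in edgeR, and as genes that differ between 25 h and 23 h DESeq2 called 90 and limma-voom 5. With 22.5 h replicate 1 and 24 h replicate 3 left out of the edgeR fit 217 were called. Libraries of these time points were little alike, with a mean r with their own group of 0.10 to 0.23 at 23 h and -0.13 to 0.23 at 25 h. 23 h replicate 3, the library close to those of 24.5 h, is in this comparison; whether libraries were exchanged was not tested. Of the 1712 genes that rose, 41.1% were higher at 25 h than at 23 h, against 51.8% of all genes tested, and of the 1882 that fell 46.7% were lower. Their median log2 changes from 23 h to 25 h were -0.04 and 0.02, against 0.63 and -0.71 from 23.5 h to 24.5 h. The difference between the comparisons was not tested. *LHY* had a log2 change of 0.51 ± 0.56 from 23 h to 25 h, *PRR5* of -0.15 ± 0.65 and *DIN10* of -0.00 ± 0.69. In single libraries *LHY* stood at 190.0, 113 and 86.7 CPM at 23 h, at 41.0, 32.5 and 272 CPM at 24 h and at 178, 216 and 182 CPM at 25 h, so that 2 of 3 libraries at 24 h were as low as those at 24.5 h, and the 25 h libraries were as high as those at 23.5 h. *GRP7* stood at 115, 104 and 171 CPM at 25 h.

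**Figure D5:**
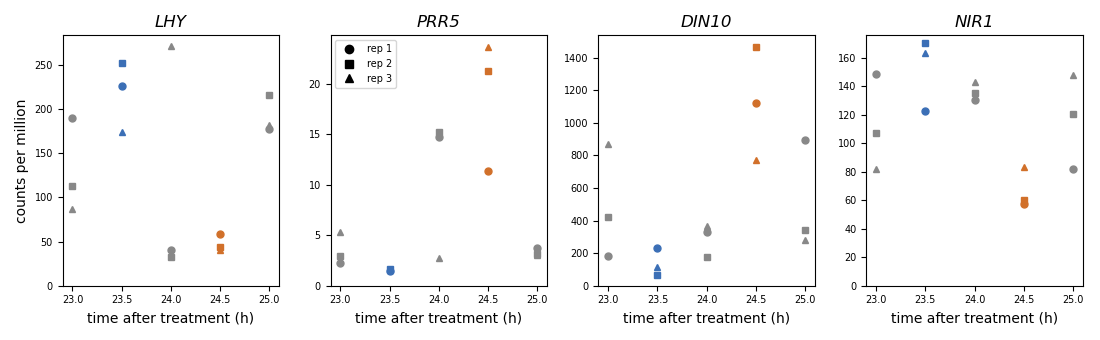
CPM of *LHY*, *PRR5*, *DIN10* and *NIR1* (vertical axes from 0) in each library at 5 time points from 23 h to 25 h (horizontal axis), with 23.5 h in blue, 24.5 h in orange and the others in grey, and marker shapes for replicates. *LHY* at 24.5 h is 40.1 to 58.7 CPM and *PRR5* 11.4 to 23.7 CPM, and the 24 h replicate 3 lies apart from the other 24 h libraries in both.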

How the data were processed

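Leaves were sampled at 16 time points with 3 replicates each; time and replicate came from the labels. The authors deposited raw, unnormalized counts per gene, made with HTSeq from STAR alignments on TAIR10 after a FastQC check. For versions, annotation release and strand setting, nothing is given in the sources used here, so overlapping and antisense genes are uncertain. The table has 1 further column of no sample, which was not used.

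All 48 libraries entered 1 edgeR 4.0.16 quasi-likelihood fit (R 4.3.3) with TMM scaling, time and replicate as factors (as in the methods) and 30 residual degrees of freedom, for genes averaging 1 CPM or more. Benjamini-Hochberg adjusted p under 0.05 was a call. CPM shown used library totals. Replicate counts differed by more than sampling noise (chi-square per degree of freedom of at least 22.0). The fit was also run on simulated counts, drawn independently per library with changes set at 24.5 h alone. Those counts held no libraries that stand apart, so the run cannot speak to the counts under left-out libraries. DESeq2 1.42.0, limma-voom (limma 3.58.1), other scalings and filters and left-out libraries were alternatives.

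Named genes were the 12 largest rises and 12 largest falls among called genes averaging 10 CPM or more with groups that do not overlap, up to 4 called members with the smallest p per list, all clock members and the study's reporter genes. Further members named beside a count were picked with their values in view. The members and the 31 lists (679 entries, 665 with a symbol that RefSeq gives for the locus) were chosen with earlier results of these data known. Promoters and products came from RefSeq TAIR10.1, by gene identifier. A called member of the lists is counted but not reported by name here.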

Additional observations from a re-analysis of the deposited data

How the results depend on the processing

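Under other scalings, filters, tests and sets of libraries that kept all 6 libraries, the 3594 genes that differ between 24.5 h and 23.5 h were 3137 to 4531. Library totals moved the share of rises from 47.6% to 61.6% (1933 up, 1204 down). Without a replicate or a library the count was 0 to 3534, lowest without replicate 2 at all time points; the cause was not tested. Under the leave-outs added after seeing the data it was 952 to 3751. The 937 genes that differ between 24.5 h and 23.5 h by at least 2-fold were 699 to 1064 with all 6 libraries, 0 to 1192 without a replicate or a library, and 314 to 1322 under the added leave-outs: 559 without replicate 2 in these 2 time points alone, and 1222 without replicate 3, 22.5 h replicate 1 and 24 h replicate 3. Replicate numbers did not pair these libraries, since deviations of same-numbered libraries correlated at 0.30, -0.16 and -0.04. Without the replicate block 3836 genes were called, 3583 of them also called with it.

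The 5 genes that differ between 25 h and 23 h were 17 with library totals, 1 with a filter at 5 CPM, 0 with these 2 time points alone with or without the replicate block, 4 without the block, 90 with DESeq2, 217 with 22.5 h replicate 1 and 24 h replicate 3 left out, and 0 to 1 without a replicate. Of at least 2-fold there were 4, and 10, 0, 0, 3, 21, 35 and 0 under the same alternatives.

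Among named genes, signs turned for 3 that were not called. The log2 change of RVE1 was -0.04, 0.003866 with library totals, and -0.27 to 0.34 over the fits without a library or replicate, with 0.08112 and 0.0643 without replicates 1 and 3 in 2 time points alone. The log2 change of RVE2 ran from -0.18 to 0.65 and the log2 change of LNK4 from -0.07 to 0.19, with -0.06881 without 24.5 h replicate 1. With 50 bases after the start included, 6.01% of all, 12.9% of risen and 4.46% of fallen genes held the evening element.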

Other observations

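Annotation families were counted after their values were seen. Of 14 genes annotated as 3-ketoacyl-CoA synthases, which build very long fatty acids for wax and cuticle, 10 fell and 2 rose, with a median log2 change of -0.74; *KCS1* went from 119 ± 6.66 to 31.6 ± 18.16 CPM (mean ± SD, n = 3), and *KCS12* rose from 10.2 ± 3.37 to 45.9 ± 9.97 CPM. Of 17 expansin genes 7 fell and 1 rose, of 41 GDSL lipases 12 fell and 1 rose, and of 40 lipid transfer proteins 9 fell and 0 rose. Falls were also the more frequent in larger families. Of 155 leucine-rich repeat genes 36 fell and 9 rose, and of 106 cytochrome P450 genes 20 fell and 7 rose. Helicases went the other way, with 24 of 105 risen and 6 fallen. Of 338 ribosomal protein genes 11 rose and 5 fell, and of 205 pentatricopeptide repeat genes 11 and 7, under the 9.74% and 10.7% of all genes tested.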
